A study of Mus musculus with 13 samples.

Results

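The 44 genes described here encode the contractile, excitation and energy proteins of skeletal muscle fibers and the transcription factors of the muscle lineage, from satellite cell to mature fiber. They were taken from a named list, and all 44 were found among the 55332 genes with values in total RNA sequencing of 13 mouse tumors. By role, 12 belong to the thick filament, 8 to the thin filament, 10 to the elastic filament and Z-disc, 7 to excitation and calcium handling and 2 to energy and oxygen supply, and 5 are myogenic factors. Across those roles, 14 are typical of fast fibers, 8 of slow fibers and 2 of developing fibers, and the other genes mark no fiber type.

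The tumors are NUT carcinomas, aggressive squamous cancers driven by a gene fusion, raised in mice that carry 1 NCT allele, from which Cre recombinase produces the fusion. The study asked whether these tumors need Sox2, a transcription factor of squamous progenitors. The 4 oral WT tumors came from KRT14-Cre; NCT+/- mice and the 4 pancreatic WT tumors from Pdx1-Cre; NCT+/- mice, with Sox2 intact. The 3 pancreatic KO tumors are labelled Pdx1-Cre; NCT+/-; Sox2fl; fl. The 2 oral KO tumors are labelled KRT4Cre; NCT+/-; Sox2fl/fl, although the study's methods name KRT14-Cre for the oral site, so that the driver of this group is not settled by the sources used here. All 13 tumors thus carry a Cre transgene, the NCT allele and the fusion, and the 5 KO tumors add 2 floxed Sox2 alleles. The driver differs between the sites, so driver and site cannot be told apart. The drivers act in epithelial lineages, and muscle, vessel or stromal cells in a sample would keep their Sox2 alleles. Ages were not given in the labels, and nothing in them says whether tumors of a group came from separate mice, so that each p-value measures the spread between these tumors only.

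Skeletal muscle fibers contract when myosin heads of the thick filament pull on actin of the thin filament, with titin as the spring that holds the thick filament in place and the Z-disc as the anchor of the thin one. A nerve impulse acts on the dihydropyridine receptor, the voltage sensor, which in turn opens the ryanodine receptor. The calcium that is released binds the troponin complex, and this lets myosin reach actin. Fast and slow fibers use different genes for the same jobs, while embryonic and neonatal myosins appear in forming or regenerating fibers. Pax7 marks the satellite cells that serve as the stem cells of muscle, Myf5 and Myod1 commit them, Myog drives differentiation and Myf6 persists in mature fibers. The tongue and much of the mouth are built of skeletal muscle, whereas the pancreas holds none.

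Sequencing depth ranged from 29394258 to 40420228 estimated counts in oral WT, 11735315 and 20432164 in oral KO, 40964533 to 46134830 in pancreatic WT and 89562790 to 120482829 in pancreatic KO tumors. Sox2 itself, the deleted gene, lay between 10.3 and 21.7 CPM (counts scaled to the same library total) in oral WT and between 25.8 and 32.2 CPM in pancreatic WT tumors, and had at most 2 counts in any KO tumor. The 7 basal keratinocyte genes that check the squamous label were detected in all 13 tumors, with a summed level of 4664 to 4845 CPM in oral KO, 5159.5 to 10209 CPM in oral WT and 8683 to 14404 CPM in pancreatic tumors. Oral KO 1 stood apart, with 59.5% of its counts on protein-coding genes against 84.5% in oral KO 2 and 85.1% to 91.7% in the other tumors. In bulk samples such as these, fewer cells of a type and less RNA per cell cannot be told apart.

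Promoter sequence was examined because many members moved together. RefSeq promoters (build GRCm38.p6) were at hand for 35 of the 44 members, 42 entries in all, and each was searched over the 250 bases before the start site on both strands. The E-box CANNTG, the site type of the myogenic factors, was in 81.0% of members' entries and 66.2% of all 32851 promoters. Its version CAGCTG, which is also a CANNTG, was in 38.1% against 13%. Matches of the MEF2 motif, named for the factors that work beside MyoD, were in 19.0% against 2.9%, and of the CArG box, the site type of serum response factor, in 11.9% against 1.5%. The letters CATTCC, found in M-CAT elements, were in 21.4% against 12.6% and TATAAA in 19.0% against 12.4%. A match describes the letters only and is not evidence of a bound site. A range of roles is shown by 6 promoters: skeletal actin at chr8:123894776-123895025 (minus strand), the fast regulatory light chain Mylpf at chr7:127211358-127211607, the fastest heavy chain Myh4 at chr11:67237562-67237811, the neonatal heavy chain Myh8 at chr11:67276874-67277123, the slow troponin Tnnc1 at chr14:31208062-31208311 and the differentiation factor Myog at chr1:134289754-134290003 (the last 5 on the plus strand). The RefSeq start of Myh4 lies before the gene's start in GENCODE M21, at 67238029, and the bases just after it were not in a GENCODE transcript. Capitals mark CANNTG, MEF2 and CArG matches, and each sequence is written 5′ to 3′ along its gene's strand.
Acta1: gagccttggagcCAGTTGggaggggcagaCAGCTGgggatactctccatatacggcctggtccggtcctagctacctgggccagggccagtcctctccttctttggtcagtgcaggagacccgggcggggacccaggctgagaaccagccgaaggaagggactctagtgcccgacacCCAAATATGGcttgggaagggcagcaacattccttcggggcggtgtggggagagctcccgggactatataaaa
Mylpf: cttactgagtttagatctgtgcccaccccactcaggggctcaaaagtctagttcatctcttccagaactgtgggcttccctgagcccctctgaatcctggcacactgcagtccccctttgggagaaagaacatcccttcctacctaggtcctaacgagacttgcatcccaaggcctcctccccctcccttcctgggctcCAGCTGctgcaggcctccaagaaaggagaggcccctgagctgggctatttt
Myh4: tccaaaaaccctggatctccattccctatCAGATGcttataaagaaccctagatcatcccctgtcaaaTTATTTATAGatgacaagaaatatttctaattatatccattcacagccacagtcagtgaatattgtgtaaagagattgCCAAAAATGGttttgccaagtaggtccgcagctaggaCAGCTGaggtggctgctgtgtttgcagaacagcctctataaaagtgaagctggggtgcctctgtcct
Myh8: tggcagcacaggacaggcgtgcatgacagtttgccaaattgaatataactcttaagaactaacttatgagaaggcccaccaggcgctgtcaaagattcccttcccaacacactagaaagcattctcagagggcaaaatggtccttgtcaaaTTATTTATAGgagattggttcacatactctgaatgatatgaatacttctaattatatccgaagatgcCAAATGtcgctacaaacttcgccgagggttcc
Tnnc1: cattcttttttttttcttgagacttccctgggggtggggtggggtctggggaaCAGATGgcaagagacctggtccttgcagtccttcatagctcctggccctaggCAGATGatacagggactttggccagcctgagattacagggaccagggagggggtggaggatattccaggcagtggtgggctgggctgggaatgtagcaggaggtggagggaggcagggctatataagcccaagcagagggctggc
Myog: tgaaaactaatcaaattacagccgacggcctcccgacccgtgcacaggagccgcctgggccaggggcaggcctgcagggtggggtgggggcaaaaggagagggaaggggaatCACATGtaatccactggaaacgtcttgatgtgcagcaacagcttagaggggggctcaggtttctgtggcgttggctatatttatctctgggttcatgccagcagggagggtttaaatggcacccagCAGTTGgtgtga
Myh4 and Myh8 held the same 10-base MEF2 match, starting at positions -182 and -99 counted from their start sites, and Acta1 and Myh4 each held a CArG match. Acta1, Mylpf and Myh4 held CAGCTG, whereas Myh8, Tnnc1 and Myog held other E-boxes only.

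Muscle transcripts were scarce in 10 of the tumors and plentiful in 3 of the oral ones. The members together took 0.00431, 0.00339, 0.00495 and 0.0858% of all counts in oral WT 1 to 4 and 0.56 and 0.471% in oral KO 1 and 2. In the pancreatic tumors they took 0.00259, 0.00298, 0.00301 and 0.00338% in WT and 0.00436, 0.00435 and 0.00537% in KO. Oral WT 4 thus lay above the other oral WT tumors and below both KO tumors, and the pancreatic tumors were near the level of oral WT 1 to 3. Of the 44 members, 33 were higher in oral KO 1, oral KO 2 and oral WT 4 than in each of the other 10 tumors, a pattern that 3.93% of the 25836 genes tested across all tumors showed. These 3 tumors cross the study's groups, were singled out by their values, and are described side by side without an average or a test. Within oral WT, 39 of the 44 members were highest in WT 4, beside 26.0% of all genes tested. The 5 exceptions were Tnni1, Tnni2, Tnnc1, Myl2 and Myod1. The pattern counts moved by at most 1 under TMM or protein-coding scaling, while the number of members higher in KO 1 than in KO 2 went from 26 to 29.

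**Figure D1:**
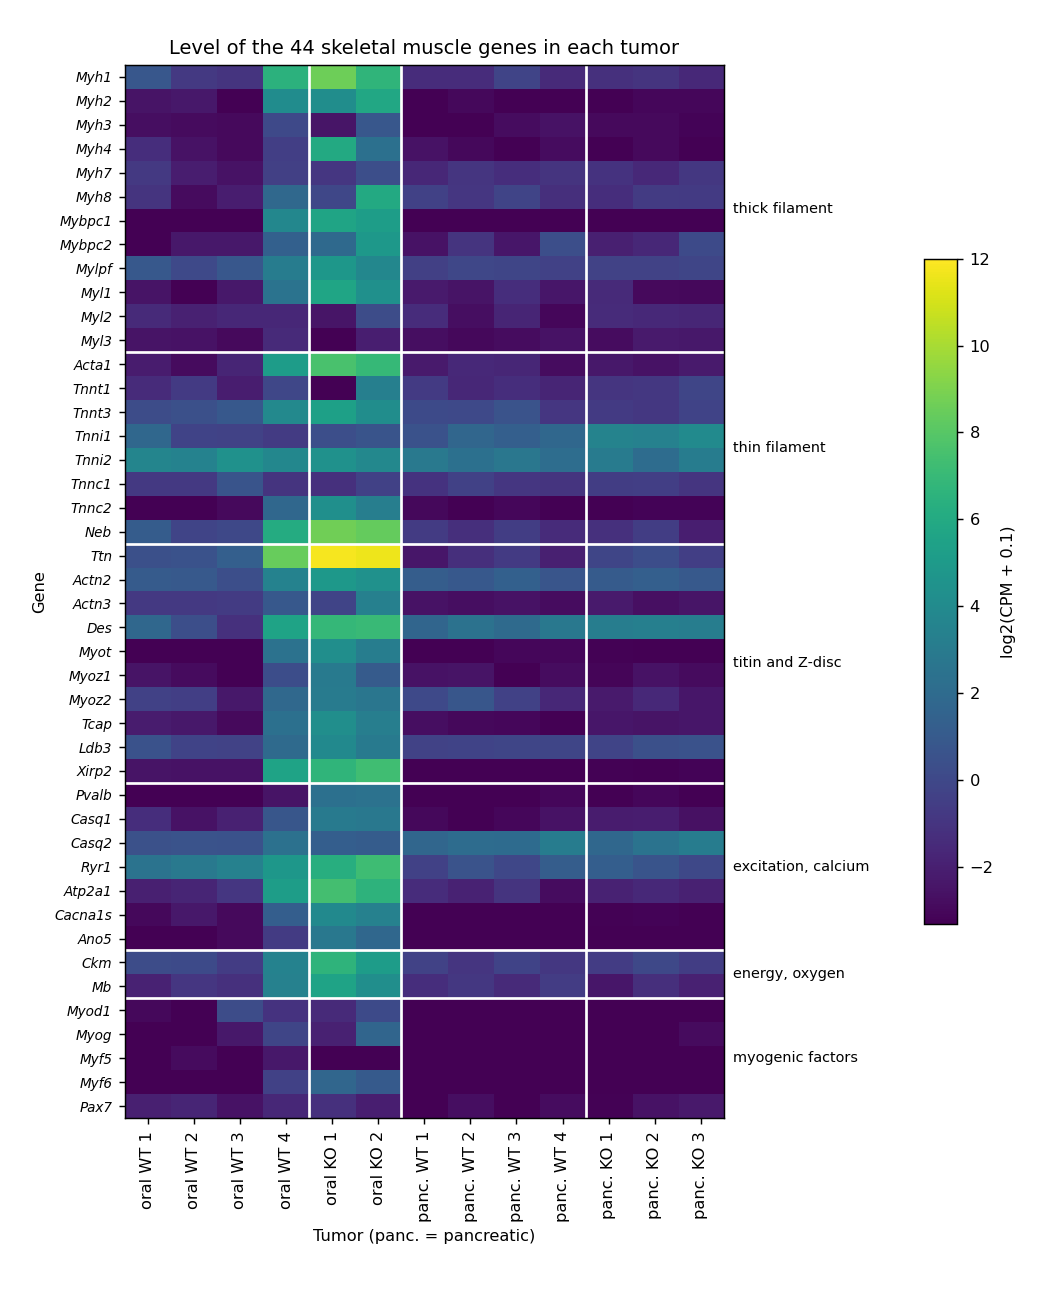
Level of each of the 44 members (rows, by role) in each of the 13 tumors (columns, by group), as log2(CPM + 0.1) on a color scale from dark (low) to yellow (high). Oral WT 4, oral KO 1 and oral KO 2 are the bright columns for 33 members, while most slow genes and myogenic factors break that pattern.

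The thick filament was led by fast myosin heavy chains in the tumors rich in muscle RNA. Myh1, the IIx heavy chain of fast fibers, was at 1.7, 0.476, 0.393 and 93 CPM in oral WT 1 to 4, 389.7 and 102 CPM in oral KO 1 and 2, 0.279, 0.293, 0.78 and 0.249 CPM in pancreatic WT and 0.34, 0.402 and 0.237 CPM in pancreatic KO tumors. Myh2, the IIa chain of more oxidative fast fibers, was at 0.0751, 0.102, 0 and 17.1 CPM in oral WT and 18.4 and 59.1 CPM in oral KO tumors, with at most 3 counts in any pancreatic tumor. Oral WT 4 and oral KO 2 were close for Myh1, and oral WT 4 and oral KO 1 for Myh2, so for each gene 1 of the KO tumors was near WT 4. Myh4, the IIb chain of the fastest fibers, was at 0.30, 0.068, 0.0327 and 0.619 CPM in oral WT and 63.8 and 4.89 CPM in oral KO tumors, and had at most 3 counts in each pancreatic tumor. Its level in oral KO 1 was 103 times and in oral KO 2 7.91 times that of oral WT 4, the widest gap between the 2 KO tumors among the fast heavy chains.

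The developmental and slow chains behaved differently. Myh8, the neonatal heavy chain, was at 0.40, 0.034, 0.131 and 3.56 CPM in oral WT, 0.852 and 62.2 CPM in oral KO, 0.674, 0.439, 0.78 and 0.316 CPM in pancreatic WT and 0.307, 0.525 and 0.52 CPM in pancreatic KO tumors. Myh3, the embryonic chain, was at 0.050, 0.034, 0.0327 and 0.94 CPM in oral WT and 0.0852 and 1.66 CPM in oral KO tumors, and reached at most 0.0678 CPM in the pancreas. Both were highest in oral KO 2, while oral KO 1 lay below oral WT 4, so the KO and WT tumors overlapped. Myh7, the slow and cardiac chain, was at 0.475, 0.136, 0.0655 and 0.643 CPM in oral WT, 0.426 and 1.17 CPM in oral KO, 0.232, 0.415, 0.303 and 0.384 CPM in pancreatic WT and 0.365, 0.234 and 0.465 CPM in pancreatic KO tumors. It was thus at a similar low level in tumors rich and poor in the fast chains. The 5 genes of the skeletal cluster lie on chromosome 11 between positions 67078300 and 67308634, and 37.9%, 32.8%, 30.4%, 18.6% and 11.1% of the 31-base words of Myh1, Myh2, Myh4, Myh8 and Myh3 occur in another gene's transcripts, so that estimated counts can be split between them.

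**Figure D2:**
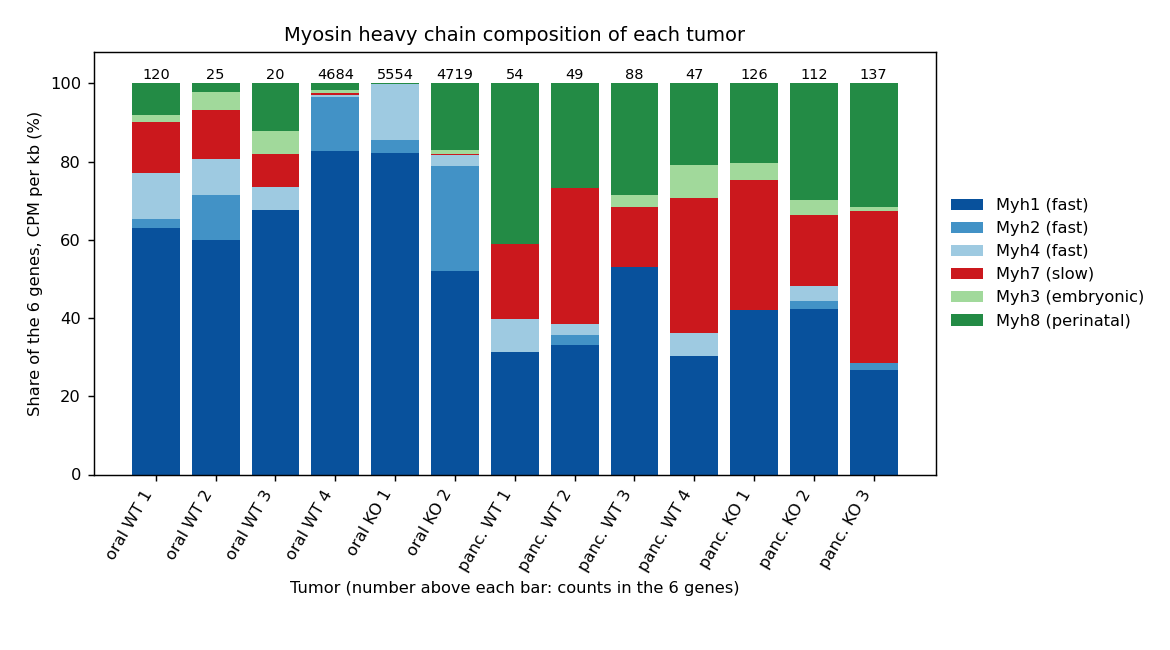
Share of each of 6 myosin heavy chains (percent of their summed CPM per kb of exon) in each tumor, stacked to 100, with the heavy chain counts behind each bar. Fast chains take 97.0%, 99.8% and 81.5% in oral WT 4, oral KO 1 and oral KO 2, and Myh8 takes 17.1% in oral KO 2.

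Per kb of exon, the composition of the 6 heavy chains differed between the 3 tumors with the most heavy chain counts. In oral WT 4, Myh1 made up 82.8% and Myh2 13.6% of the heavy chain level, and the fast chains 97.0% in all. In oral KO 1, Myh1 was again at 82.2%, but Myh4 took 14.2% and Myh2 3.45%, for 99.8% fast. In oral KO 2, Myh1 was at 52.1%, with Myh2 at 26.8%, Myh4 at 2.64% and the neonatal Myh8 at 17.1%, which left 81.5% fast. The order of fast share was therefore KO 1, WT 4, KO 2, and their intervals on counts did not overlap. Those count shares were 99.7% in oral KO 1 (exact Clopper-Pearson 95% interval 99.5 to 99.8, 5554 counts), 95.6% in oral WT 4 (94.9 to 96.1, 4684 counts) and 71.9% in oral KO 2 (70.6 to 73.1, 4719 counts). These intervals cover counting error only. The Myh8 share of oral KO 2 was 26.7% when its longest coding transcript was used in place of its exons' union, which is longer. Slow Myh7 took 0.422%, 0.0662% and 0.442% of the level in oral WT 4, oral KO 1 and oral KO 2. In oral WT 1 to 3 the fast share was 77.1%, 80.5% and 73.6% on 120, 25 and 20 counts, and in the pancreatic tumors 28.6% to 53.1% on 47 to 137 counts, where Myh7 took 15.2% to 38.7%.

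Other thick filament genes went with the fast heavy chains. Mybpc1, a myosin-binding protein C of slow type that fast fibers also use, had no count in oral WT 1 to 3 or any pancreatic tumor and was at 13.3 CPM in oral WT 4 and 49.6 and 37.2 CPM in oral KO tumors. Mybpc2, its fast counterpart, was at 0, 0.102, 0.0982 and 2.5 CPM in oral WT and 3.66 and 28.8 CPM in oral KO tumors, so it was highest in oral KO 2, unlike Mybpc1. The fast light chains Mylpf and Myl1 were highest in oral KO 1, at 27.4 and 52.2 CPM. The slow light chains Myl2 and Myl3, which the heart also uses, never exceeded 1.08 and 0.247 CPM in any tumor. Of the 12 thick filament genes, 7 were higher in both oral KO tumors than in all 4 oral WT tumors, namely Myh1, Myh2, Myh4, Mybpc1, Mybpc2, Mylpf and Myl1.

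In the thin filament, skeletal actin and nebulin followed the fast myosins. Acta1, skeletal muscle alpha-actin, was at 0.1251, 0.034, 0.196 and 35.7 CPM in oral WT, 198 and 121 CPM in oral KO, 0.116, 0.244, 0.217 and 0.0452 CPM in pancreatic WT and 0.0996, 0.067 and 0.119 CPM in pancreatic KO tumors. Neb, the ruler protein of the thin filament, was at 2.13, 0.782, 0.884 and 69.7 CPM in oral WT and 408 and 327 CPM in oral KO tumors. For both, every KO tumor lay above every oral WT tumor, with WT 4 in between. Per kb of exon and relative to Acta1 in the same tumor, Myh1 stood at 47.6% in oral KO 1, 20.4% in oral KO 2 and 63.1% in oral WT 4, and the calcium pump Atp2a1 at 38.9%, 34.7% and 45.6%. On the same scale desmin stood at 24.6%, 45.4% and 53.2% and titin at 23.6%, 34.6% and 13%. The mix of muscle transcripts was therefore not the same in the 3 tumors, with Myh1 nearest to actin in WT 4 and titin nearest in KO 2.

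The troponins did not move as a set. Tnnt3, the fast tropomyosin-binding subunit, was at 1.08, 1.22, 1.8 and 14.4 CPM in oral WT, 42.3 and 18.4 CPM in oral KO, 0.976, 0.952, 1.43 and 0.429 CPM in pancreatic WT and 0.506, 0.458 and 0.757 CPM in pancreatic KO tumors. Its slow partner Tnnt1 was at 0.275, 0.51, 0.131 and 0.866 CPM in oral WT, 0 and 9.59 CPM in oral KO, 0.511, 0.22, 0.303 and 0.203 CPM in pancreatic WT and 0.415, 0.469 and 0.821 CPM in pancreatic KO tumors. Tnnt3 was above all WT tumors in both oral KO tumors, whereas Tnnt1 was highest in oral KO 2 and had no count in oral KO 1. Tnnc2, the fast calcium-binding subunit, was at 0, 0, 0.0327 and 3.34 CPM in oral WT and 19.7 and 9.45 CPM in oral KO tumors, with at most 3 counts in any pancreatic tumor. Tnnc1, its slow and cardiac partner, was at 0.475, 0.476, 1.47 and 0.396 CPM in oral WT, 0.341 and 0.685 CPM in oral KO, 0.372, 0.684, 0.434 and 0.384 CPM in pancreatic WT and 0.589, 0.603 and 0.411 CPM in pancreatic KO tumors. Tnnc1 was highest in oral WT 3 and lay within a narrow range elsewhere, so the pair of calcium-binding subunits had different patterns over the same tumors.

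The inhibitory troponins were found in every tumor. Tnni2, the fast subunit, was at 12.3, 10.8, 21.4 and 13.8 CPM in oral WT, 21.3 and 14.4 CPM in oral KO, 7.22, 4.88, 6.57 and 4.43 CPM in pancreatic WT and 8.34, 4.14 and 8.51 CPM in pancreatic KO tumors. Tnni1, the slow subunit, was at 3.43, 0.748, 0.72 and 0.544 CPM in oral WT, 1.19 and 1.47 CPM in oral KO, 1.37, 3.3, 2.34 and 3.34 CPM in pancreatic WT and 11.5, 10.7 and 15.7 CPM in pancreatic KO tumors. Tnni2 was therefore present at a like level in oral tumors with and without other muscle transcripts, and Tnni1 was highest in the 3 pancreatic KO tumors, all above the pancreatic WT ones. Per kb of exon, Tnni2 made up 89.6% to 98.6% of the inhibitory pair in the oral tumors, 76.1% to 92.7% in pancreatic WT and 63.6%, 48.1% and 56.6% in pancreatic KO tumors (exact 95% intervals 61.6 to 65.4, 45.1 to 51.1 and 54.6 to 58.5). Tnnt3 made up 95.9% of its pair in oral WT 4, 100% in oral KO 1 (lower limit 99.5) and 72.7% in oral KO 2 (69.1 to 76.1). Tnnc2 made up 91.7%, 98.7% and 94.7% of its pair in those tumors and 0% to 7.52% in the other 10.

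**Figure D3:**
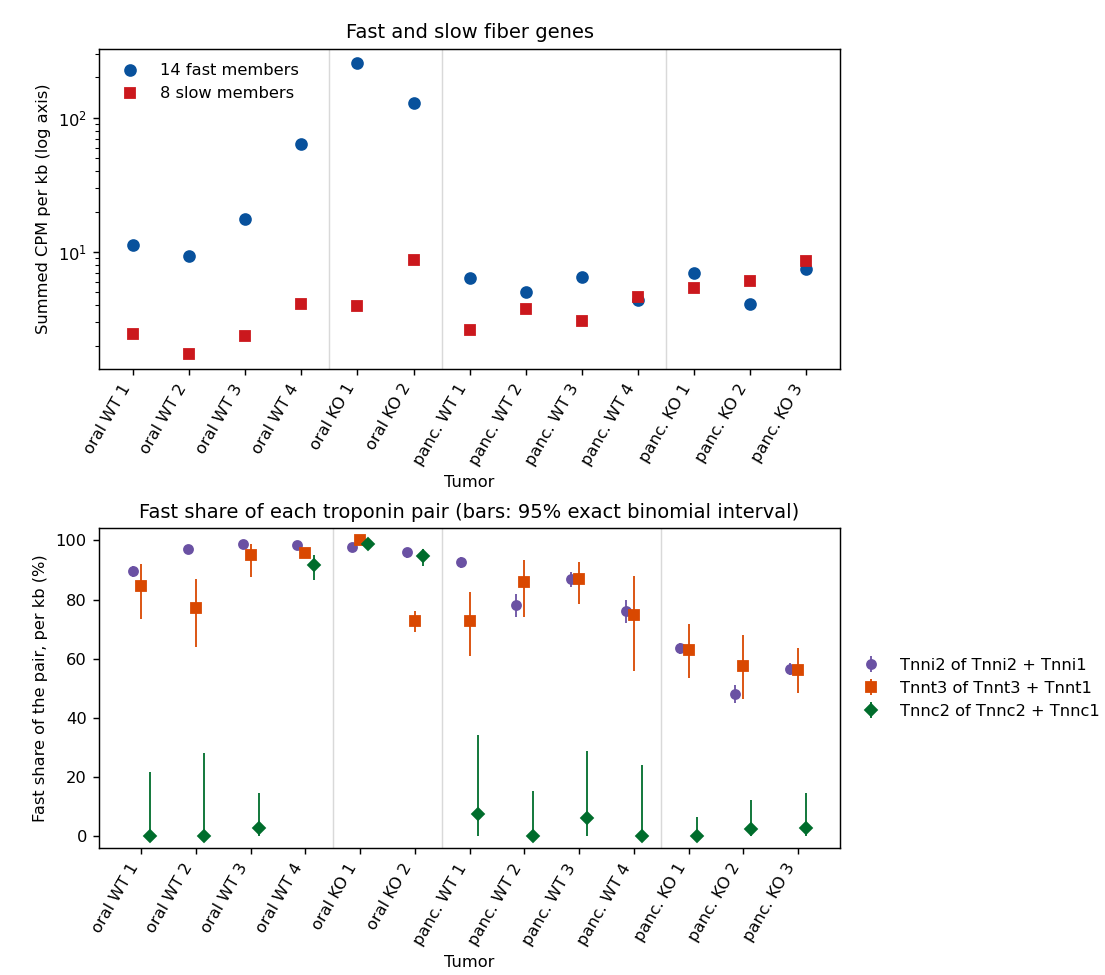
Upper panel, summed CPM per kb of exon (log axis) of the 14 fast and the 8 slow genes in each tumor, and lower panel, fast share (percent, per kb) of each troponin pair with its 95% exact binomial interval. The fast sum reaches 63.8, 255 and 129 in oral WT 4, oral KO 1 and oral KO 2, while the slow sum stays between 1.73 and 8.78 in all 13 tumors, and the Tnni2 share is lowest in the 3 pancreatic KO tumors.

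Summed over each fiber list, the fast genes were highest in oral WT 4, oral KO 1 and oral KO 2, whereas the slow genes covered a narrower range, with all 3 pancreatic KO tumors above all 4 pancreatic WT tumors. The 14 fast genes summed to 11.3, 9.28, 17.6 and 63.8 CPM per kb in oral WT 1 to 4, 255 and 129 in oral KO and 6.37, 4.99, 6.51 and 4.4 in pancreatic WT and 6.96, 4.1 and 7.4 in pancreatic KO tumors. The 8 slow genes summed to 2.43, 1.73, 2.35 and 4.1 CPM per kb in oral WT, 3.98 and 8.78 in oral KO, 2.6, 3.75, 3.04 and 4.63 in pancreatic WT and 5.4, 6.1 and 8.56 in pancreatic KO tumors. Tnni1 alone held 0.381, 0.915, 0.65 and 0.929 of these in pancreatic WT and 3.2, 2.98 and 4.37 in pancreatic KO tumors. It was the only slow gene with every pancreatic KO tumor above every pancreatic WT tumor. The 2 developmental genes summed to 0.0423, 0.00851, 0.0165 and 0.458 CPM per kb in oral WT and 0.0865 and 5.55 in oral KO tumors, and oral KO 2 held by far the highest value. Of the 14 fast genes, 13 were higher in oral KO 1, oral KO 2 and oral WT 4 than in the other 10 tumors, with Tnni2 as the exception. Of the 8 slow genes only Myoz2, a Z-disc protein of slow fibers, had that pattern. Both developmental genes had it as well.

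Titin dominated the counts of the elastic filament and Z-disc. Ttn, the giant spring of the sarcomere, was at 1.23, 1.33, 2.36 and 352 CPM in oral WT, 3545 and 3182 CPM in oral KO, 0.0929, 0.317, 0.52 and 0.158 CPM in pancreatic WT and 0.805, 1.12 and 0.611 CPM in pancreatic KO tumors. It took 41.0%, 63.3% and 67.6% of the members' counts in oral WT 4, oral KO 1 and oral KO 2, and its exons span 116825 bases. Without Ttn the members still summed to 506, 2059 and 1526 CPM in these tumors and to 32.6 to 47.1 CPM in oral WT 1 to 3. Des, the intermediate filament that ties Z-discs together and is also found in smooth muscle, was at 3.4, 1.16, 0.327 and 46.4 CPM in oral WT, 119 and 134 CPM in oral KO, 3.11, 5.39, 3.88 and 7.01 CPM in pancreatic WT and 8.82, 9.85 and 8.92 CPM in pancreatic KO tumors. Des differed from Ttn in being higher in every pancreatic tumor than in oral WT 2 and 3, and its pancreatic KO values all lay above the pancreatic WT ones. Of the 10 genes of this role, 9 were higher in both oral KO tumors than in all oral WT tumors. The exception was Actn3, the alpha-actinin of the fastest fibers, at 0.475, 0.476, 0.524 and 1.76 CPM in oral WT and 0.767 and 10.03 CPM in oral KO tumors, so that oral KO 1 lay below oral WT 4. Myot and Xirp2, actin-binding proteins of the Z-disc and the fiber ends, had at most 0 and 0.0751 CPM in oral WT 1 to 3 but 5.47 and 46.6 CPM in oral WT 4.

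Among the excitation and calcium genes, Ryr1 separated the sites as well as the oral genotypes. Ryr1, the calcium release channel, was at 5.51, 7.35, 10.6 and 27 CPM in oral WT, 76.7 and 149.8 CPM in oral KO, 0.674, 1.39, 0.867 and 2.15 CPM in pancreatic WT and 2.26, 1.5 and 0.913 CPM in pancreatic KO tumors. It was higher in each oral WT tumor than in each pancreatic tumor, and higher in both oral KO tumors than in oral WT 4. Atp2a1, the fast fiber calcium pump SERCA1, was at 0.15, 0.204, 0.426 and 36.8 CPM in oral WT, 174 and 95 CPM in oral KO, 0.279, 0.171, 0.39 and 0.0452 CPM in pancreatic WT and 0.174, 0.246 and 0.164 CPM in pancreatic KO tumors. Casq1, the calcium store protein of fast fibers, was at 0.30, 0.068, 0.164 and 1.63 CPM in oral WT and 7.75 and 6.85 CPM in oral KO tumors, and at 0 to 0.134 CPM in the pancreas. Casq1 and Atp2a1 had the 3 muscle-rich tumors on top. Casq2, the slow and cardiac calsequestrin, was at 1.3, 1.43, 1.38 and 5.07 CPM in oral WT, 2.3 and 2.1 CPM in oral KO, 3.18, 4.17, 4.03 and 8.43 CPM in pancreatic WT and 3.34, 5.61 and 8.72 CPM in pancreatic KO tumors. In contrast to Casq1, it was higher in every pancreatic tumor than in 5 of the 6 oral tumors, and both oral KO tumors lay below oral WT 4.

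Parvalbumin and anoctamin 5 were largely found in the oral KO tumors. Pvalb, the calcium buffer of the fastest fibers, had 0, 0, 0 and 3 counts in oral WT 1 to 4 and 57 and 109 counts in oral KO 1 and 2, and at most 3 counts in any pancreatic tumor. Ano5, a membrane protein whose loss causes a muscular dystrophy, was at 0, 0, 0.0327 and 0.544 CPM in oral WT and 7.07 and 3.38 CPM in oral KO tumors, with no count in the pancreatic tumors. For both genes the KO and WT tumors did not overlap. Cacna1s, the voltage sensor of the muscle cell, had no count in the pancreatic WT tumors and was highest in oral KO 1, at 15.3 CPM.

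Both energy genes had the same order of tumors. Ckm, muscle creatine kinase, which regenerates ATP during contraction, was at 1.08, 0.987, 0.557 and 10.8 CPM in oral WT, 99.95 and 35.3 CPM in oral KO, 0.72, 0.415, 0.759 and 0.452 CPM in pancreatic WT and 0.573, 0.893 and 0.584 CPM in pancreatic KO tumors. Mb, the oxygen store myoglobin, was at 0.175, 0.442, 0.327 and 10.4 CPM in oral WT and 47.5 and 19.1 CPM in oral KO tumors. In both, oral KO 1 was highest, then oral KO 2, then oral WT 4, and every other tumor was at or below 1.08 CPM.

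Pax7 and Myf5 were near the floor in all tumors, while Myod1, Myog and Myf6 were above it in some oral tumors. Pax7, the satellite cell factor, had 6, 6, 2 and 9 counts in oral WT, 4 and 3 in oral KO, 0, 2, 0 and 2 in pancreatic WT and 1, 6 and 12 in pancreatic KO tumors. Myf5 had 0, 1, 0 and 4 counts in oral WT and none in any other tumor, where 3 counts, the limit that a count of 0 allows, correspond to 0.256 and 0.147 CPM in oral KO 1 and 2. Neither gene passed the filter of the oral comparison, and no difference was detectable at this depth. Myod1, the commitment factor, was at 0.025, 0, 1.08 and 0.371 CPM in oral WT and 0.256 and 0.979 CPM in oral KO tumors, with no count in the pancreas. It was highest in oral WT 3, a tumor poor in mature muscle transcripts, next to oral KO 2. Myog, the differentiation factor, was at 0, 0, 0.0982 and 0.816 CPM in oral WT and 0.17 and 3.13 CPM in oral KO tumors, and had no count in 6 of the 7 pancreatic tumors and 4 in the other. Myf6, the factor of mature fibers, was at 0, 0, 0 and 0.668 CPM in oral WT and 3.24 and 1.91 CPM in oral KO tumors, with none in the pancreas. Myog was highest in oral KO 2 and lay below oral WT 4 in oral KO 1, while Myf6 was the only factor of the 5 with both oral KO tumors above all oral WT tumors.

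**Figure D4:**
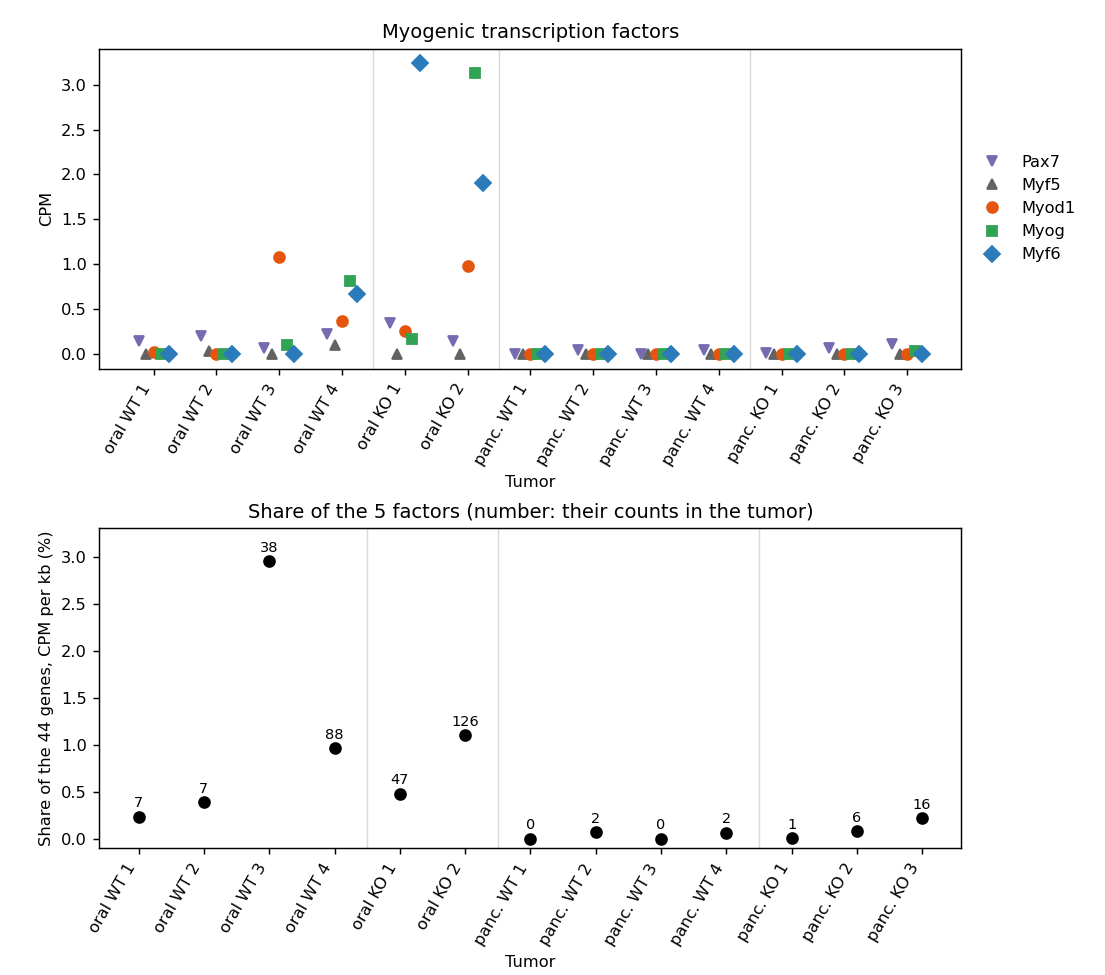
Upper panel, level in CPM of the 5 myogenic factors in each of the 13 tumors, and lower panel, their share of the 44 members' summed CPM per kb (percent) with their counts printed above. Myog reaches 3.13 CPM in oral KO 2, Myf6 3.24 CPM in oral KO 1 and Myod1 1.08 CPM in oral WT 3, and the highest share is 2.95% in oral WT 3.

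Mature genes outweighed the myogenic factors in every tumor. Per kb of exon, the 39 mature members, which include the developmental Myh3 and Myh8, summed to 16.5, 13.1, 21.6 and 140.0 CPM per kb in oral WT 1 to 4, 597 and 374 in oral KO and 11.2 to 19.6 in pancreatic tumors. Tnni2 alone held 8.19, 7.2 and 14.3 of these in oral WT 1 to 3 and 2.77 to 5.68 in pancreatic tumors. The 5 factors summed to 0.0391, 0.0512, 0.658 and 1.36 CPM per kb in oral WT and 2.87 and 4.16 in oral KO tumors. The factors' share of the members' level was 0.236, 0.389, 2.95 and 0.962% in oral WT, 0.479 and 1.1% in oral KO and 0% to 0.219% in pancreatic tumors, on 7, 7, 38 and 88, 47 and 126 and 0 to 16 counts. The oral KO shares lay within the oral WT range, and the highest share, in oral WT 3, held 33 counts of Myod1 among its 38. Oral KO 2, which had the higher factor share of the 2 KO tumors, also had the higher neonatal and embryonic myosin. With 2 tumors this is a description.

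The comparison of oral KO with oral WT tumors asks whether these genes differed with Sox2 loss at that site. Most muscle genes were higher by estimate in the KO tumors, and for many of them oral WT 4 lay far above the other oral WT tumors. The share of members called was close to that of all genes tested. Of 41 members tested by edgeR's quasi-likelihood test, 4 were called higher (Benjamini-Hochberg adjusted p under 0.05 over all 22342 genes tested and a log2 fold change above 1), beside 8.81% of all genes tested. None was called lower (0 also at unadjusted p under 0.05), beside 2.89% of all genes. The 4 were Myh4, Pvalb, Ryr1 and Ldb3, a Z-disc scaffold. Myl3, Myf5 and Pax7 did not pass the count filter. At unadjusted p under 0.05 the count was 21. DESeq2 called 10 higher, beside 11.7% of all genes, and 0 lower, beside 6.26%.

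Myh4 rose by a log2 fold change of 7.40 (SE 1.34, adjusted p = 0.0253) and Ryr1 by 3.23 (SE 0.62, adjusted p = 0.0283). Ldb3, at 1.35, 0.748, 0.72 and 3.76 CPM in oral WT and 15.4 and 7.64 CPM in oral KO tumors, rose by 3.07 (SE 0.77, adjusted p = 0.0442). Pvalb rose by a fitted 7.82 (SE 0.94, adjusted p = 0.0148), and the pooled ratio of CPM was 241 (95% interval 81.2 to 1182). That interval covers the counting error of the pooled reads and not the spread between tumors, and the 3 counts in oral WT all came from WT 4. Pvalb passed the count filter through the KO tumors alone, so its call rests in part on the group in which it was high. In all 4 genes both KO tumors lay above all 4 WT tumors. The titin estimate was larger than that of Ryr1 and was not called, at 5.42 (SE 2.34, adjusted p = 0.151), and so were those of Acta1 at 4.38 (SE 2.16, adjusted p = 0.196) and Atp2a1 at 4.08 (SE 2.01, adjusted p = 0.196). Close to the threshold were Ckm at 4.63 (SE 1.27, adjusted p = 0.0569), Casq1 at 3.90 (SE 1.07, adjusted p = 0.055) and Ano5 at 5.32 (SE 1.44, adjusted p = 0.0545).

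The members' direction was nearly uniform, since 40 of the 41 had a positive estimate and Tnnc1 a negative one. Their median log2 fold change was 3.61, against -0.003 over all genes tested. Of the 14 fast genes 2 were called, with a median of 3.99, and of the 7 slow genes tested none was called by edgeR (2 at unadjusted p under 0.05, 2 by DESeq2), with a median of 1.32. Of the 3 factors tested none was called by edgeR (1 at unadjusted p under 0.05, 0 by DESeq2), with a median of 2.72. By level alone, 29 of the 41 tested members (70.7%) had both KO tumors above all 4 WT tumors, beside 18.6% of all genes tested, and 0 had them below, beside 23%.

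**Figure D5:**
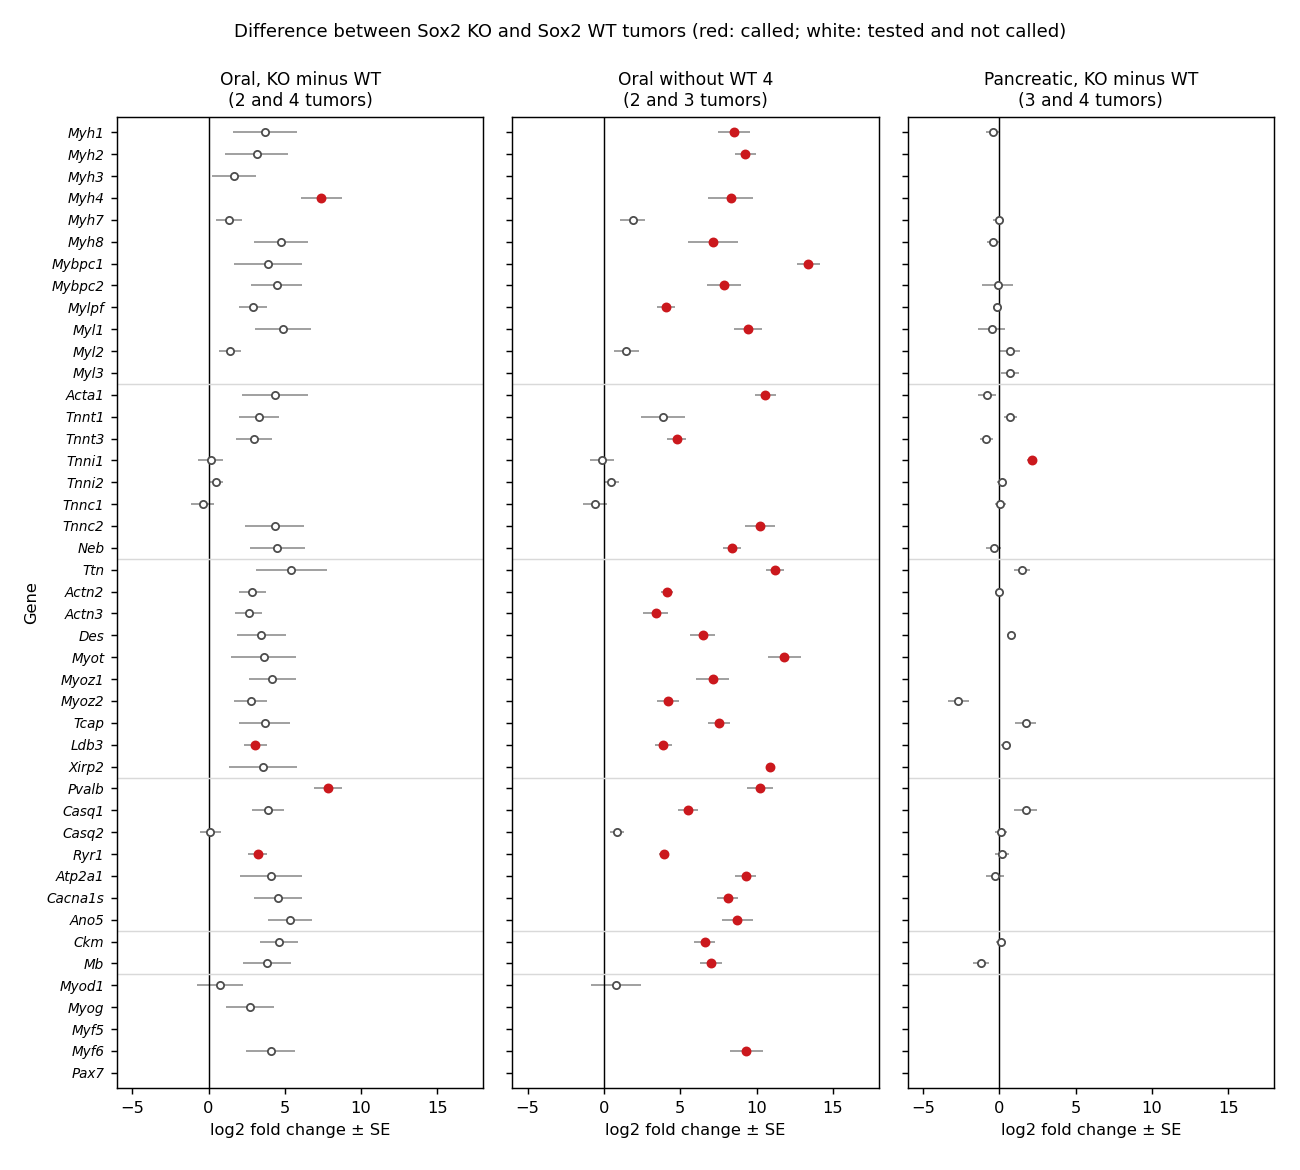
Log2 fold change of KO over WT (x axis, bars are ± 1 SE from edgeR) of each member tested, by role, in the oral tumors, the oral tumors without WT 4 and the pancreatic tumors, with called members in red. The called members number 4, 31 and 1 in the 3 panels, and in the middle panel the sizes for Mybpc1, Myot, Pvalb and Myf6, which had no count in oral WT 1 to 3, depend on the prior count of the fit.

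Each oral tumor mattered to the count of 4. Without oral WT 4, 31 of 39 members were called higher, beside 8.72% of all genes, with a median log2 fold change of 7.12. These included 13 of the 14 fast genes, 1 of 7 slow genes and 1 of 2 factors, with Ttn at 11.19 (SE 0.60), Acta1 at 10.58 (SE 0.66) and Ckm at 6.60 (SE 0.69). Acta1, Myh2, Tnnc2, Pvalb, Mybpc1, Mybpc2 and Myl1 had under 10 counts in each of oral WT 1 to 3. So did Cacna1s, Myot, Myoz1, Tcap, Xirp2, Myf6 and Ano5. All of these called genes passed the filter of this fit through the KO tumors alone. The count of 31 and the median thus rest in part on genes that entered through the group in which they were high. Tnni2 and Tnni1 remained without a call, at 0.49 and -0.12. Leaving out another tumor lowered the count. It was 0 without oral WT 1, oral WT 2 or oral KO 1 (12, 10 and 9 members at unadjusted p under 0.05). In these fits the genes called higher in all were 43 of 21631, 19 of 22060 and 25 of 22116. The member count was 1 without oral WT 3 (Pvalb), beside 912 of 22155 genes, and 1 without oral KO 2 (Myh4), beside 97 of 21616. With only protein-coding genes in the fit it was 0 as well (21 at unadjusted p under 0.05), with 19 of all 16352 genes called higher. With both oral WT 4 and the oral KO 1 tumor that stood apart left out, a choice made after seeing the data, 10 of 25 members were called, beside 0.34% of all genes tested.

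The pancreatic KO and WT tumors asked the same question at a site with little muscle RNA. Of the 27 members tested there 1 was called higher, the slow troponin Tnni1, beside 0.337% of all 24653 genes tested. Its log2 fold change was 2.15 (SE 0.33, adjusted p = 0.037), with all 3 KO tumors above all 4 WT tumors. The call was lost without pancreatic WT 1, WT 2 or WT 3 or any KO tumor (0 members called by edgeR in each, with 3 to 5 at unadjusted p under 0.05), and held without pancreatic WT 4. Where it was lost, the genes called higher in all were between 25 of 24525 (without WT 3) and 47 of 24581 (without WT 2). Without WT 4 they were 100 of 24576. None was called lower by edgeR, beside 0.292% (2 at unadjusted p under 0.05, 1 by DESeq2). The gene that DESeq2 called lower, beside 2.94% of all genes, was Myoz2, at 0.929, 1.59, 0.694 and 0.226 CPM in pancreatic WT and 0.116, 0.234 and 0.0913 CPM in pancreatic KO tumors, with an edgeR estimate of -2.69 (SE 0.69, adjusted p = 0.119). By level, 4 of the 27 (14.8%; Ttn, Tnni1, Des and Tcap) had every KO tumor above every WT tumor, beside 12.1% of all genes. The pancreatic KO libraries were the deepest of the series, and with counts thinned to the smallest pancreatic library Tnni1 was still the gene called.

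Oral and pancreatic WT tumors were compared to see whether muscle genes differed by site with Sox2 intact. Of 28 members tested 6 were called higher in oral tumors, beside 9.3% of all 23164 genes, and 0 lower by edgeR (1 at unadjusted p under 0.05), beside 7.24%. DESeq2 called Casq2 lower in oral tumors, beside 8.65% of all genes. The 6 called higher by edgeR were Ttn with a log2 fold change of 8.09 (SE 2.30, adjusted p = 0.0349), Neb with 5.17 (SE 1.60, adjusted p = 0.0466), Ryr1 with 3.06 (SE 0.60, adjusted p = 0.00784), Tnni2 with 1.08 (SE 0.28, adjusted p = 0.0242), Actn3 and Casq1. For Actn3 and Casq1 the pancreatic WT tumors had at most 3 counts each, against 19, 14, 16 and 71 and 12, 2, 5 and 66 counts in oral WT 1 to 4, so that WT 4 held most of the oral counts. Both genes passed the count filter of this comparison through the oral tumors alone. Without oral WT 4 the calls were 5, of which Ttn, Tnni2, Actn3 and Ryr1 were higher and Casq2 was lower in oral tumors, with the Ttn estimate down to 2.33, beside 9.19% of all genes higher and 8.94% lower. The count was 3 without pancreatic WT 1, 2 without pancreatic WT 2, WT 3 or WT 4, and 6, 8 and 6 without oral WT 1, WT 2 and WT 3. All of these were higher in oral tumors except 1 of the 6 without oral WT 1, Tnni1, which was lower (-2.19). Of all genes 1980 of 22741, 1725 of 22974 and 1942 of 23005 were called higher without oral WT 1, WT 2 and WT 3. Without pancreatic WT 1 to 4 these were 1651 of 22803, 1696 of 23006, 1492 of 22732 and 2026 of 22996. A share of 25.0% of the tested members (7 of 28) had all oral WT above all pancreatic WT tumors, near the 24.1% of all genes. Myod1, with 1, 0, 33 and 15 counts in oral WT 1 to 4 and none in pancreatic WT tumors, was not called.

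The test of whether the KO-WT difference itself differed between sites called 4 of 42 members, all with the larger difference in oral tumors, beside 7.41% of all 25836 genes tested. They were Myh4, Ckm, Ryr1 and Myoz2. Ryr1 had a difference of 2.99 on the log2 scale (SE 0.85, adjusted p = 0.0374), Ckm 4.45 (SE 1.35, adjusted p = 0.0467) and Myoz2 5.38 (SE 1.38, adjusted p = 0.0273). Myoz2 was at 0.676, 0.612, 0.0982 and 3.46 CPM in oral WT and 8.18 and 6.26 CPM in oral KO tumors. Its estimate was positive at the oral and negative at the pancreatic site, with neither called in the main edgeR fits. DESeq2 called both, at 2.74 in oral and -2.71 in pancreatic tumors. Myh4 had an adjusted p of 0.0309, but its pancreatic counts were too few for its size to be read. Without oral WT 4 the count was 24 of 40, beside 9.39% of all genes. Among the genes called there, Tnnc2, Pvalb, Myot and Myoz1 passed the filter through the oral KO tumors alone. The count was 3 without oral WT 1 and 4 without oral KO 2, and 2 without oral WT 2, oral WT 3, oral KO 1, pancreatic WT 1, WT 3, WT 4 or pancreatic KO 2. It was 1 without pancreatic WT 2 or KO 1 and 0 by edgeR without pancreatic KO 3 (12 members at unadjusted p under 0.05). Apart from the fit without oral WT 4, the genes called in that direction in all ranged widely. They were 825 of 25324 without pancreatic KO 3 and up to 2314 of 25799 without pancreatic WT 4. No member was called with the larger difference in pancreatic tumors, beside 4.85% of all genes (1 at unadjusted p under 0.05, 0 by DESeq2).

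Other muscle genes, from lists that complete the pathway, were also mostly higher by estimate in the oral KO tumors, with a few calls in each list, beside 8.81% of all genes called higher (values are log2 fold changes from edgeR). Of 18 further sarcomere genes 3 were called higher, the M-line proteins Myom1 (3.17, adjusted p = 0.0281) and Myom2 (3.66, 0.0469) and the actin-associated Synpo2l (3.10, 0.0417), and estimates ran from 0.32 for Tpm2 to 4.40 for Smpx. Of 11 triad and membrane genes 2 were called, the chloride channel Clcn1 (2.87, adjusted p = 0.0280) and the calcium store protein Srl (2.10, 0.0321). Of 11 muscle energy genes 3 were called, namely Ampd1 (2.33, adjusted p = 0.0262), Phkg1 (1.54, 0.0321) and Cox7a1 (3.52, 0.0474). The 3 lists had medians of 3.19, 2.05 and 2.92, all below the 3.61 of the members.

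Genes of the synapse and of muscle formation were mixed. Of 5 neuromuscular junction genes tested 1 was called, the acetylcholine receptor subunit Chrna1 (2.52, adjusted p = 0.0301), and Musk, which assembles the synapse, was at 2.40 (0.0518). Of 8 myogenesis and fusion genes tested 1 was called, the MEF2 factor Mef2c (1.75, adjusted p = 0.0183), which endothelial and other cells also express, and Pax3 was at 2.32 (0.0873). In that list estimates ran from -2.27 for the satellite cell receptor Calcr to 3.96 for Smyd1. Of 4 head muscle genes tested none was called by edgeR (0 at unadjusted p under 0.05, 0 by DESeq2), with Tbx1 at -0.54. No gene of these 6 lists was called lower by edgeR, beside 2.89% of all genes (1 at unadjusted p under 0.05, 1 by DESeq2, beside 6.26%). In the pancreatic comparison 11, 7, 7, 4, 5 and 3 genes of the 6 lists were tested, in the order given. None was called by edgeR in either direction, beside 0.337% of all genes called higher and 0.292% lower. At unadjusted p under 0.05 there were 4 higher and 4 lower, and DESeq2 called 4 lower, beside 2.94% of all genes.

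Markers of other cells that share some of the members were examined beside them. Cardiomyocytes use Myh7, Myl2, Myl3, Tnnc1 and Casq2, but the heart genes Nppa, Myh6 and Nkx2-5 did not exceed 0.170 CPM in any tumor. Myl7, the atrial light chain, reached 38.6 CPM, in pancreatic WT 2, and Tnnt2, the cardiac troponin T, was at 2.99 to 18.6 CPM across the tumors. These carried most of the total, and the 8 heart genes summed to 7.92 to 21.4 CPM in oral and 23.2 to 55.4 CPM in pancreatic tumors. None of the 5 heart genes tested in oral tumors was called by edgeR (1 at unadjusted p under 0.05, 1 by DESeq2). The 7 smooth muscle genes, whose cells also use Des, summed to 171 to 419.9 CPM in oral WT, 110.4 and 309 CPM in oral KO and 368 to 818 CPM in pancreatic tumors, and none was called in the oral comparison by edgeR (0 at unadjusted p under 0.05, 0 by DESeq2). None of the few adipocyte, Schwann cell and salivary genes tested (1 of 4, 4 of 4 and 1 of 4) was called by edgeR (2 higher and 1 lower at unadjusted p under 0.05, 1 lower by DESeq2). Of the 7 basal keratinocyte genes Krt15 was called lower in oral KO tumors (-3.11, adjusted p = 0.0398), and Krt5 was at -1.04 (0.0537). On total counts the summed keratinocyte level was lowest in oral KO 1 and oral KO 2, at 4664 and 4845 CPM, next to 5159.5 CPM in oral WT 3. That order depends on the scaling, since only 59.5% of the counts of oral KO 1 were on protein-coding genes. The TMM factors were 0.859 for oral KO 1 and 1.03 for oral WT 3, so oral KO 1 does not stay below oral WT 3 under TMM. The part of the keratinocyte level in the members' values was not tested.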

How the data were processed

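Total RNA of 13 mouse tumors was depleted of ribosomal RNA and sequenced with strand information. Per the study's methods and the submitters' processing notes, reads were trimmed with Trim Galore 0.6.10 (FastQC 0.12.1) and quantified with kallisto 0.50.0 on GRCm38 transcripts (GENCODE M23), and the authors summed the estimated counts per gene and deposited them in 1 table. The deposited estimated counts are not normalized, and 27.3% of the values are not whole. Of 56085 genes in the table, 753 carry no values. Of the 55332 with values, 55141 had a symbol in GENCODE M21 (GRCm38), the annotation used here for names and exon lengths. No sample column was left unused.

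Counts were rounded, and CPM were taken over each tumor's total. CPM per kb divides by the union of a gene's exons. Groups came from the labels. The main test was edgeR's quasi-likelihood test (edgeR 4.0.16, limma 3.58.1, R 4.3.3; TMM, robust) on genes that reached 10 counts in 2 or more of the fitted tumors. A gene was called at a Benjamini-Hochberg adjusted p under 0.05 over all genes tested and an absolute log2 fold change above 1. Each site was fitted alone, the WT tumors of both sites together, and the interaction on all 13 tumors. Alternatives were DESeq2 1.42.0 (with and without apeglm 1.24.0), other filters, scalings and gene sets, thinned counts, a replicate block, a joint fit of the 13 tumors and dropping every tumor in turn. Scripts were tested on simulated data. Shares carry exact Clopper-Pearson intervals (scipy 1.17.1, Python 3.11.15, pandas 2.3.3), and figures were drawn with matplotlib 3.10.9.

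The members and all gene lists were chosen with earlier results of these data known. Any of the 44 members could be named, and the values in each tumor were given for Ttn, Acta1, Ckm, the 6 myosin heavy chains, the 3 troponin pairs, Ryr1, Atp2a1, Pvalb, Casq1, Casq2, Des, Ano5 and the 5 myogenic factors. From other lists the called genes, those with the smallest p and the highest and lowest estimates were named. Levels of further members were given after their values were seen. A gene of the head muscle list is not reported here by name. Promoter sequences came from RefSeq (GRCm38.p6). Kallisto divides reads shared by related genes by an estimate, which bears on the myosin heavy chains. Depth limits the myogenic factors most, since 3 counts, the limit that a count of 0 allows, correspond to 0.256 CPM in the shallowest tumor and 0.0249 CPM in the deepest.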

Additional observations from a re-analysis of the deposited data

Results flagged for a closer look

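In oral WT, 31 of the 39 members with more than 10 counts in some tumor of the group had 1 tumor far from the other 3, that is, a gap between the highest tumor and the nearest other that took more of the group's whole range than Dixon's 95% critical value for 4 samples. For a single gene with normally distributed values this happens by chance in about 1 group of 20. The members share the same 4 tumors, so that rate cannot be set against the 31 together. The share of all genes flagged in this way was not computed. In 29 of the 31 the tumor was oral WT 4. In the thick filament the ratio was 0.986 for Myh1, 0.994 for Myh2, 0.981 for Myh3, 0.896 for Myh8, 1 for Mybpc1, 0.959 for Mybpc2, 0.892 for Mylpf and 0.983 for Myl1. In the thin filament it was 0.995 for Acta1, 0.946 for Tnnt3, 0.99 for Tnnc2 and 0.98 for Neb. For titin and the Z-disc genes it was 0.997 for Ttn, 0.912 for Actn2, 0.962 for Actn3, 0.933 for Des, 1 for Myot, 0.934 for Myoz1, 0.982 for Tcap and 1 for Xirp2. For the excitation and calcium genes it was 0.852 for Casq1, 0.966 for Casq2, 0.992 for Atp2a1, 0.967 for Cacna1s and 0.94 for Ano5. For the energy genes it was 0.949 for Ckm and 0.974 for Mb. Of the factors it was 0.88 for Myog and 1 for Myf6. The other two were slow troponins high in another tumor, with a ratio of 0.929 for Tnni1 in oral WT 1 and 0.925 for Tnnc1 in oral WT 3. In pancreatic WT 1 of 23 members checked stood out, Myh1 in WT 3 with a ratio of 0.917. That tumor had 36 counts of Myh1. The position of oral WT 4 thus covered genes of every role.

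The interaction test called 4 of 42 members with the larger KO-WT difference in oral tumors, beside 7.41% of all 25836 genes tested. With a tumor left out the count was 0 to 24. Differences on the log2 scale were 9.05 for Myh4, 4.45 for Ckm, 2.99 for Ryr1 and 5.38 for Myoz2. For Myh4 the pancreatic counts were at most 3 per tumor, so that its size depends on the prior count. In Myoz2 the 2 sites moved in opposite directions by estimate. Neither site's own difference passed the main edgeR test, while DESeq2 called both (2.74 in oral, -2.71 in pancreatic).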

How the results depend on the processing

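Of the values of single genes recomputed under the alternatives, 347 kept their direction and side of the threshold, 41 passed it only under the alternative and 97 only in the main setting. The estimate of oral Tnni1, called in neither, was 0.13 with all tumors and -0.12 without oral WT 4. The oral count of 4 calls became 1 with no count filter, beside 1769 of 36788 genes called higher in all. It was 7 without robust estimation (1979 of 22342) and 10 with DESeq2 and with apeglm (2605 and 2513 of 22342). With protein-coding genes only it was 0 (19 of 16352), and in 1 fit of all 13 tumors 20 (with 3590 of 25836 genes called higher). Without both oral WT 4 and oral KO 1, a setting chosen after seeing the data, it was 10 (72 of 21204). Leaving out 1 tumor gave 0 to 31. The pancreatic count of 1 became 2 with DESeq2 and with apeglm and 0 with protein-coding genes only or in 1 fit of all tumors, and 0 to 1 with a tumor left out. Of all 24653 genes, 389 were called higher and 726 lower with DESeq2, and 330 and 559 with apeglm. These numbers were 3 and 7 of 16855 with protein-coding genes only and 55 and 37 of 25836 in the joint fit. The count of 6 between the WT groups became 3 with at least 10 counts in every tumor, and 2 to 8 with a tumor left out. With that filter 1345 of 16793 genes were called higher in oral tumors and 1086 lower. The interaction count of 4 became 1 with no filter, 0 by edgeR with thinned counts (9 members at unadjusted p under 0.05) and 21 without both oral WT 4 and oral KO 1, and 0 to 24 with a tumor left out. Of all genes, 1275 of 40020 had the larger difference in oral tumors with no filter and 1142 of 20078 with thinned counts. Without both oral WT 4 and oral KO 1 these were 1598 of 25477. The cause of these changes in count was not tested. Deviations from the group mean were compared between tumors of the same number (correlations -0.080 and -0.038 in oral, 0.317, -0.025 and -0.069 in pancreatic and -0.073 to 0.028 between WT groups). Only pancreatic number 1, at 0.317, had its own number as best match. The 2 oral KO tumors deviate from their mean by equal and opposite amounts, so the oral values cannot decide on pairing. Whether the numbers pair tumors is thus not settled. With the number as a replicate block the calls were 16 in oral (of 43 genes called higher in all), 2 in pancreatic, 5 between the WT groups, of which Casq2 was lower in oral (-1.54), and 10 for the interaction. Called higher and lower in all were 189 and 401 of 24653 genes in pancreatic and 1629 and 1360 of 23164 between the WT groups. For the interaction these were 824 and 636 of 25836. The mean share of the myogenic factors was 0.101% in oral KO tumors with counts not divided by length, against 0.789% per kb, and 0.0744% against 0.0340% in pancreatic WT tumors. The mean fast share of the heavy chains in pancreatic WT tumors, 41.8% per kb of exon, was 31.2% on counts and 31.6% per kb of the longest transcript. With a tumor left out the mean fast share ranged from 77.1% to 84.9% in oral WT, 81.5% to 99.8% in oral KO, 38.1% to 43.8% in pancreatic WT and 35.3% to 45.1% in pancreatic KO tumors. The factor share ranged from 0.529% to 1.44%, 0.479% to 1.10%, 0.0212% to 0.0453% and 0.0439% to 0.149% in the same order.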
